A study of Mus musculus with 6 samples.

Results

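The genes of voltage-gated sodium and calcium channels and of the sodium leak channel were read from RNA precipitated with phosphorylated ribosomes from the vBNST of mice, which is the ventral portion of the bed nucleus of the stria terminalis and a part of the extended amygdala. Members were chosen by symbol: the Scn genes for sodium channel alpha and beta subunits, the Cacna1 genes for calcium channel alpha1 subunits, the Cacna2d and Cacnb genes for calcium channel alpha2delta and beta subunits, and Nalcn, Unc79 and Unc80. The rule found 35 of the 29547 rows, and 33 of them are described here, of which 20 encode pore-forming and 13 encode auxiliary subunits. The comparison is of 3 Con with 3 CS libraries, with tissue collected 90 min after the mice were tested with CS+ or CS-. Which test the CS libraries follow, and what the Con mice received, is not stated in the labels, and they give no genotype, strain, age or number of animals. All 6 libraries came from one tissue, and all were precipitated with an antibody against phosphorylated ribosomal protein S6. The antibody catalogue number differs from sample to sample, so whether 1 or several antibodies were used is not settled by the labels. No library is described as unprecipitated input, so enrichment by the antibody was not measured here.

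Voltage-gated channels turn changes of membrane potential into ion flow. The alpha subunit of a sodium channel forms the whole pore and carries the upstroke of the action potential, while the beta subunits, which cross the membrane once, tune gating, surface level and adhesion. Calcium channel alpha1 subunits form pores that open near rest (T type) or after stronger depolarization (L, N, P/Q and R type). The cytoplasmic beta subunit and the extracellular alpha2delta subunit bring the latter to the membrane and to release sites. Nalcn forms a sodium leak pore that helps set the resting potential, and it works in a complex with the large proteins Unc79 and Unc80.

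Levels are given as RPKM, reads per kilobase of row length and per 1e6 assigned reads, after each library was scaled to the same median. Libraries held from 765769 to 2342686 assigned reads. As deposited, the median deviation of a library from the row means was on average 0.37 (log2) higher in CS than in Con. The scaling removed this shift, and without the scaling 9 of the 28 estimates given below take the opposite sign. Neuron markers were present in every library, with a summed level of 343 to 408 RPKM in Con and 301 to 331 RPKM in CS. Neither the neuron list nor any other marker list used here is particular to the vBNST, so the labelled subregion was not checked. In such bulk RNA, fewer cells of a type and less RNA per cell cannot be told apart.

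Most channel genes lay close to the centre of all rows, and 1 auxiliary subunit stood lowest. Cacna2d4, an alpha2delta subunit best known from retinal photoreceptors, had 4.33-fold less RNA in CS. It did not pass the test on log2 RPKM over all rows, in which limma called 0 of the 28 tested genes described (0 higher and 1 lower at an unadjusted p under 0.05, this gene, beside 8.77% of all rows lower at that p). That split turns with the scaling: as deposited 7 of the 28 genes were higher and 1 lower at that p, beside 12% of all rows higher and 4.69% lower. That test called 0.968% of all 20550 tested rows, so it made few calls anywhere. With limma voom, which models the reads recovered from the table, Cacna2d4 fell and was called (1 of 27, or 3.70%), beside 6.43% of all rows called in either direction and 6.16% called lower. The share of channel genes called was thus below the background with all libraries. This background moved with the library left out. Without Con library 3 or CS library 3 voom called 3.4% and 2.79% of all rows, and without CS library 2 413 of 9722. In these fits Cacna2d4 was the only channel gene called. Without Con library 1 voom called 732 of 10109 rows, without Con library 2 771 of 9835 and without CS library 1 647 of 9531. In each of those fits 1 T-type gene was called beside Cacna2d4. Voom with library totals instead of the median called Cacna2d4 alone, with 5.02% of all rows called (272 higher and 253 lower), and limma on rows with at least 60 reads also called Cacna2d4 alone, with 4.09% called.

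Pore-forming and auxiliary genes had medians close to each other and to that of all rows. The median log2 fold change of the 15 tested pore-forming genes was -0.03, with 9 of them below and 6 above 0. Of 13 auxiliary genes 6 were lower and 7 higher, with a median of 0.0063, and of all tested rows 48% were lower, with a median of 0.03. Apart from Cacna2d4, the 27 tested genes had log2 fold changes between -0.71 and 0.51 and limma adjusted p from 0.534 upward (0.24 upward by voom). As deposited, without median scaling, the medians were 0.34 for pore-forming and 0.38 for auxiliary genes, beside 0.41 for all rows, so both stayed with the whole. The 3 CS libraries lay entirely above or below the 3 Con libraries for 6 of the 28 genes, or 21.4%, beside 19.1% of all rows.

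**Figure D1:**
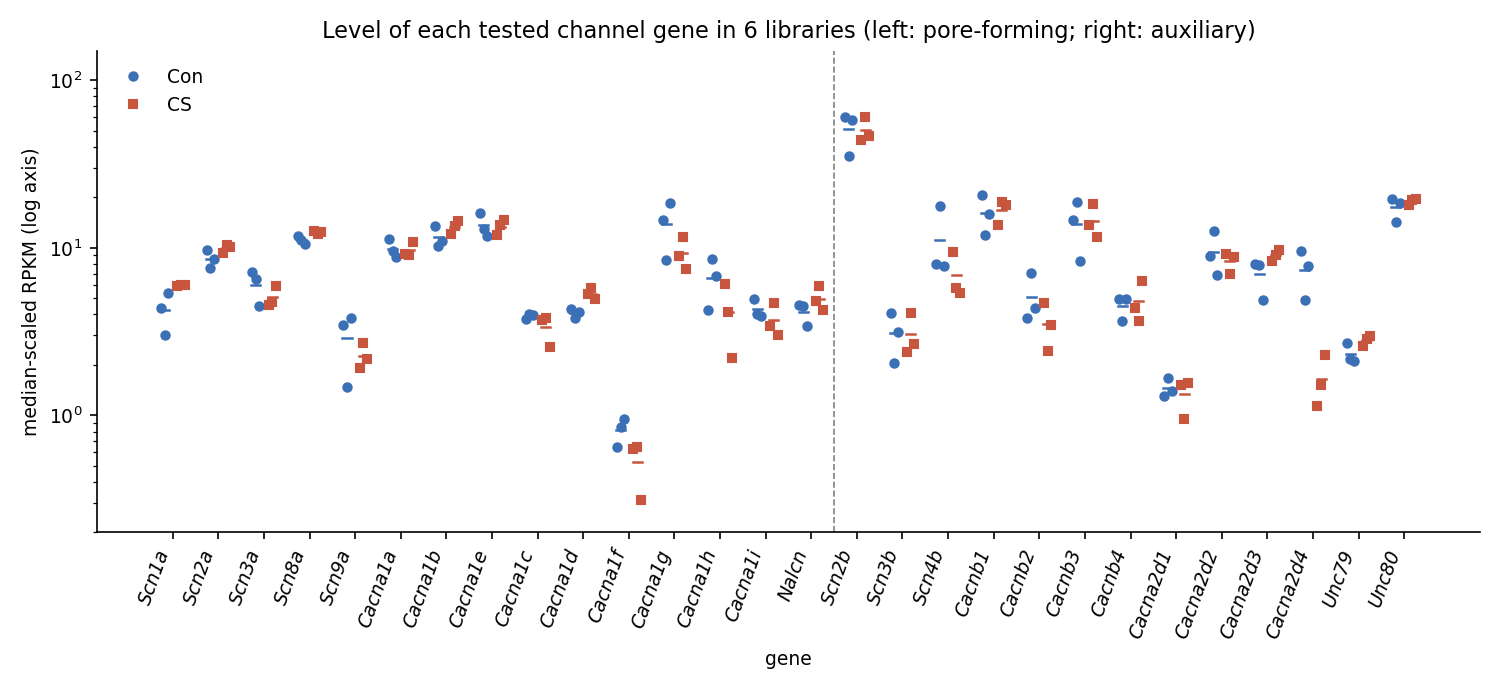
Level of the 28 tested channel genes in each library (median-scaled RPKM, log axis), with Con as circles and CS as squares, short bars for group means, and a dashed line between pore-forming and auxiliary genes. The groups lie side by side for most genes, and Cacna2d4 shows CS below Con in all libraries.

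**Figure D2:**
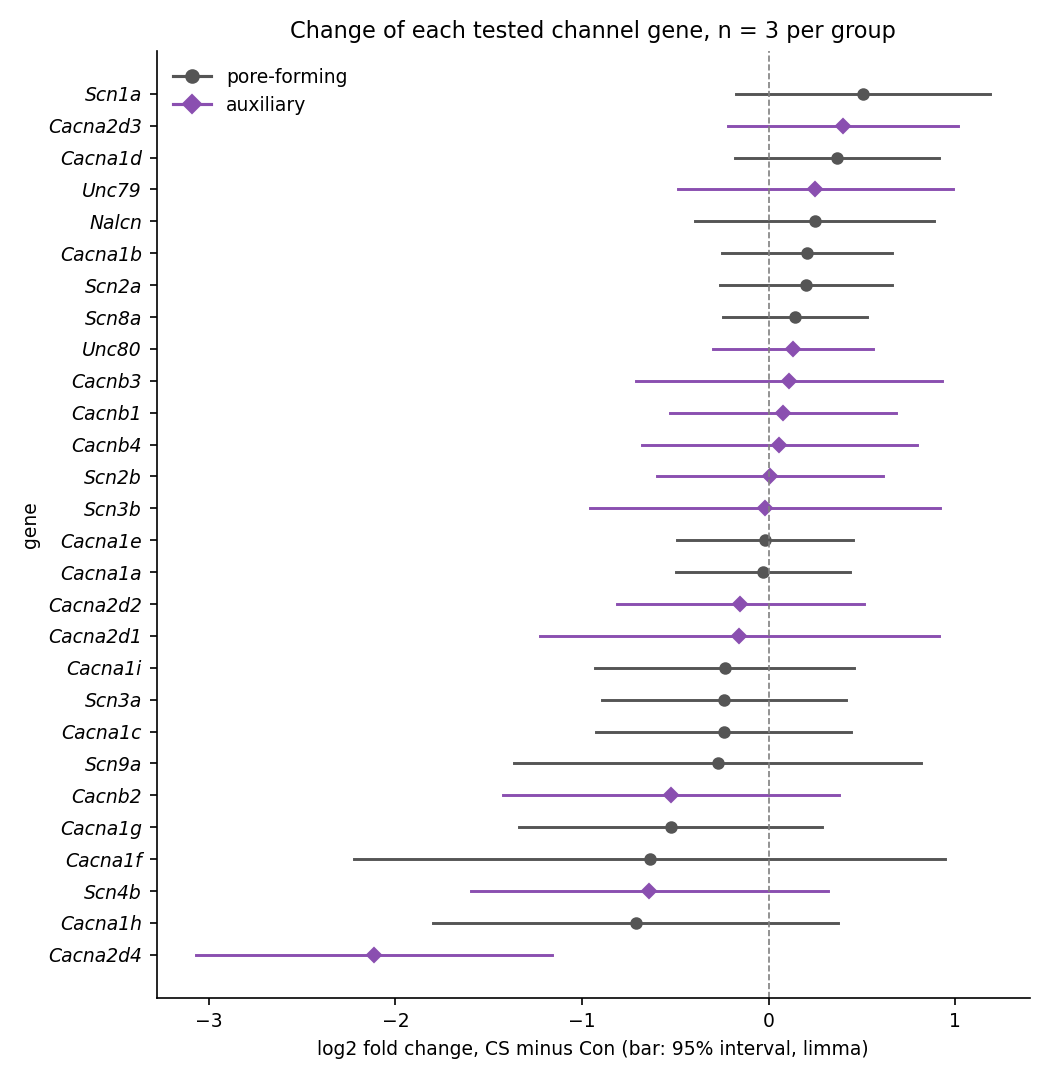
Log2 fold change, CS minus Con, of the 28 tested channel genes with its 95% interval from limma (n = 3 per group), ordered by size. The interval of Cacna2d4 (-3.07 to -1.16) lies below 0, and those of the other 27 genes cross it.

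Among sodium channel alpha subunits, Scn8a and Scn2a were the most abundant. Scn8a, the main channel of mature axon initial segments and nodes, had 11.7, 11.2 and 10.6 RPKM in Con and 12.6, 12 and 12.4 RPKM in CS. All CS libraries lay above the Con libraries, by a small step (log2 fold change 0.14 ± 0.16 SE, limma adjusted p = 0.777), and a 95% interval of the CS to Con fold was 0.845 to 1.44. Scn2a, which dominates in excitatory neurons and early axons, had 9.76, 7.56 and 8.54 RPKM in Con and 9.26, 10.4 and 10.04 RPKM in CS, with overlapping groups (log2 fold change 0.20 ± 0.19 SE, limma adjusted p = 0.724).

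Scn1a, the principal channel of fast-spiking interneurons, had 4.38, 3.01 and 5.34 RPKM in Con and 5.88, 5.98 and 5.97 RPKM in CS. The CS libraries were nearly equal to each other and all above the Con libraries, which spread more (log2 fold change 0.51 ± 0.28 SE, limma adjusted p = 0.534). Scn3a, best known from the developing brain, had 7.12, 6.48 and 4.5 RPKM in Con and 4.53, 4.72 and 5.94 RPKM in CS. Its groups overlapped, with an estimate of -0.24 ± 0.27. Scn9a, known from peripheral sensory neurons and also made in hypothalamic cells, had 3.47, 1.48 and 3.78 RPKM in Con and 1.92, 2.71 and 2.16 RPKM in CS, and Con library 2 was the lowest of all 6. Its groups overlapped, with an estimate of -0.27 ± 0.45.

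As shares of the RPKM of the 9 sodium alpha genes described, within a library, which do not depend on scaling, Scn8a held 32, 37.6 and 29.7% in Con and 35.9, 33.4 and 33.4% in CS. Scn1a held 11.9, 10.1 and 15% in Con and 16.8, 16.6 and 16% in CS, the only one of the 9 shares whose groups did not overlap. The ratio of Scn1a to Scn2a nevertheless overlapped between the groups, at 0.449, 0.398 and 0.626 in Con and 0.635, 0.574 and 0.595 in CS (exact two-sided permutation p = 0.3).

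Several sodium alpha genes were near the limit of detection. Scn10a and Scn11a, of pain-sensing neurons, had 19 and 10 reads in all, of which Con library 3 held 11 and 5 while Con libraries 1 and 2 held none. In Con library 1 a count of 0 allows up to 0.492 RPKM of Scn10a (3 reads, before scaling, covering counting error only). Scn4a, the skeletal muscle channel, had 14 reads, and Scn7a, a sodium-sensing relative, had 9. Together with the muscle calcium channel gene Cacna1s (15 reads) these 5 genes fell under the minimum mean of 0.5 RPKM and were not tested.

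Calcium channel alpha1 subunits gave no call, with estimates from -0.71 to 0.37. Of 9 tested genes 7 were lower and 2 higher, beside 48% of all rows lower, with a median of -0.23, which became 0.14 as deposited. By voom with median scaling 4 of 8 were lower and 4 higher, with a median of -0.11. Cacna1e, the R-type pore, had the most reads of any channel gene (3081) and 16.2, 13 and 11.7 RPKM in Con and 11.9, 13.7 and 14.6 RPKM in CS. Its estimate was -0.02 ± 0.20, and the 95% interval of the CS to Con fold was 0.711 to 1.37. Cacna1b, the N-type pore of release sites, had 13.5, 10.2 and 10.9 RPKM in Con and 12, 13.5 and 14.4 RPKM in CS (log2 fold change 0.21 ± 0.19 SE, limma adjusted p = 0.714). Cacna1a, the P/Q-type pore that drives fast release at most central synapses, had 11.3, 9.56 and 8.85 RPKM in Con and 9.18, 9.09 and 10.8 RPKM in CS. Both genes had overlapping groups, and Cacna1a had an estimate of -0.03 ± 0.19.

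The L-type pores link calcium entry to gene transcription and pacemaking. Cacna1d, whose channel opens at less depolarized potentials than that of Cacna1c, had 4.32, 3.81 and 4.11 RPKM in Con and 5.3, 5.72 and 4.94 RPKM in CS. All CS libraries lay above all Con libraries (log2 fold change 0.37 ± 0.23 SE, limma adjusted p = 0.582). Cacna1c had 3.77, 4.01 and 3.95 RPKM in Con and 3.71, 3.82 and 2.57 RPKM in CS, with CS library 3 lowest and an estimate of -0.24 ± 0.28. Cacna1f, a retinal pore, was tested on 50 reads at a mean under 1 RPKM (-0.64 ± 0.66). Every CS library of Cacna1f lay below the Con libraries, but the counts were 4, 9 and 10 reads in Con and 10, 9 and 8 reads in CS, and a difference was not detectable at this depth.

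The T-type pores, which support rebound bursts, all had estimates below 0 and none was called. Cacna1g had 14.6, 8.48 and 18.6 RPKM in Con and 8.88, 11.7 and 7.44 RPKM in CS (log2 fold change -0.52 ± 0.34 SE, limma adjusted p = 0.596), with Con library 2 inside the CS range. Cacna1h had 4.24, 8.62 and 6.81 RPKM in Con and 6.07, 4.15 and 2.21 RPKM in CS, and here Con library 2 was the highest and Con library 1 lay among the CS libraries (log2 fold change -0.71 ± 0.45 SE, limma adjusted p = 0.589). By voom Cacna1g passed without Con library 2 (adjusted p = 0.0451, against 0.354 with all libraries). Cacna1h passed by voom without Con library 1 (0.0397) and without CS library 1 (0.0488), against 0.262 with all libraries. Each library left out was one whose value lay within the range of the other group. Of all rows, voom called 771 of 9835 without Con library 2. It called 732 of 10109 without Con library 1 and 647 of 9531 without CS library 1. Cacna1i had 4.95, 4.01 and 3.94 RPKM in Con and 3.41, 4.7 and 3.02 RPKM in CS, with an estimate of -0.23 ± 0.29.

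Within the calcium alpha1 RPKM of a library, the share of Cacna1d was 5.88, 6.06 and 5.85% in Con and 8.6, 8.51 and 8.2% in CS. It was higher in every CS library (5.93 ± 0.115% in Con and 8.44 ± 0.213% in CS, SD, n = 3). This narrow spread cannot serve to judge the gap, because Cacna1d rested on 27, 41 and 44 reads in Con. In Con library 1 counting error alone allowed 2.51 to 5.55 RPKM around 3.82 RPKM, before scaling. In proportion that range is far wider than the SD of the share. The level of Cacna1d was not called (limma adjusted p = 0.582, voom 0.363). The share of Cacna1b, 18.4, 16.2 and 15.6% in Con and 19.5, 20.01 and 23.9% in CS, was also higher in every CS library. The T-type genes together held 32.3, 33.6 and 41.7% in Con and 29.8, 30.5 and 21% in CS, lower in every CS library. Shares of one sum are tied to each other, so these are not separate results, and no test was made of them. Over the 5 subunit families with such sums (sodium alpha and beta, calcium alpha1, beta and alpha2delta), 5 of 30 gene shares had groups that did not overlap. For levels the groups did not overlap in 19.1% of all rows, and no such background was made for shares, so the count does not set these shares apart.

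**Figure D3:**
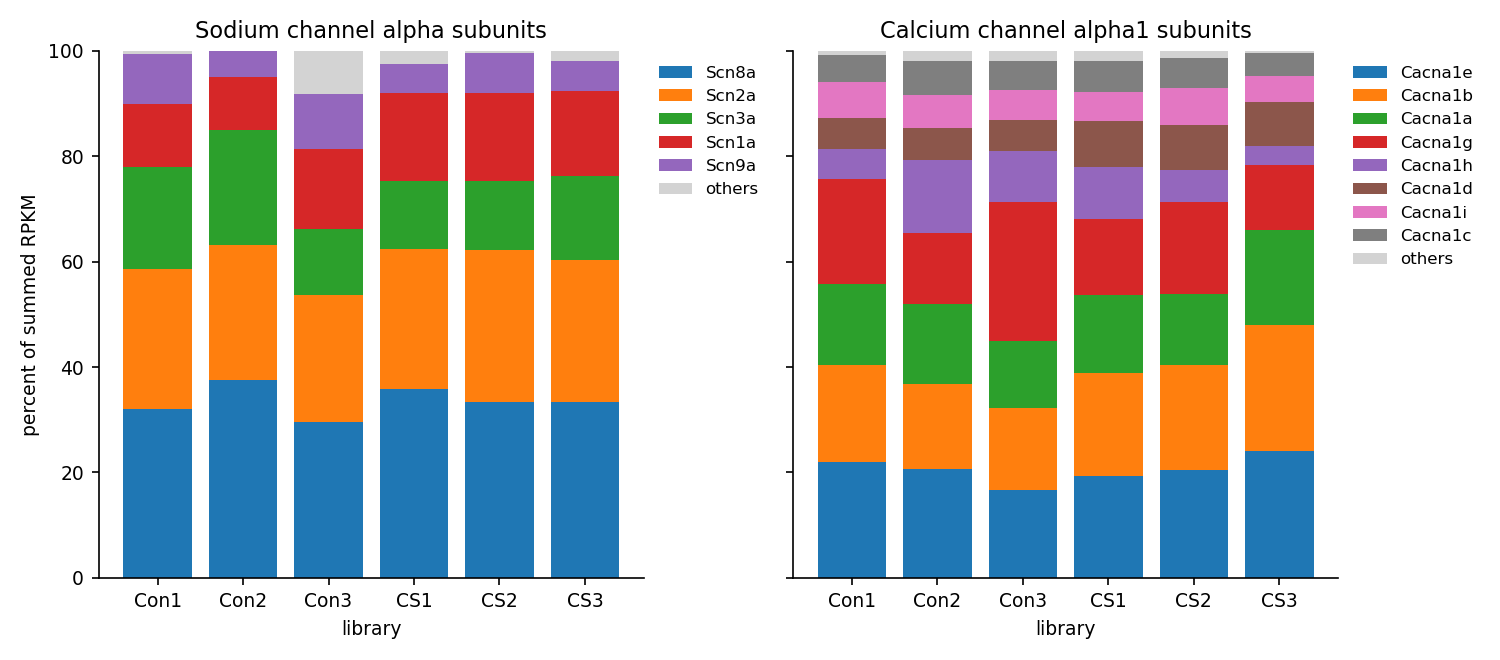
Percent of the summed RPKM of the described genes within each library held by each sodium channel alpha gene (left) and calcium channel alpha1 gene (right), with genes of low share joined as others. Scn8a and Scn2a lead among alpha subunits. By group means Cacna1e, Cacna1b, Cacna1a and Cacna1g hold the largest shares among alpha1 subunits, and the Cacna1d share is larger in each CS library.

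The sodium leak complex gave no call. Nalcn had 4.57, 4.47 and 3.4 RPKM in Con and 4.8, 5.87 and 4.23 RPKM in CS (log2 fold change 0.25 ± 0.27 SE, limma adjusted p = 0.77). Unc80, which links Unc79 to the pore, was the most abundant of the 3 with 19.4, 14.3 and 18.5 RPKM in Con and 17.9, 19.4 and 19.5 RPKM in CS, and Unc79 had 2.7, 2.17 and 2.12 RPKM in Con and 2.6, 2.84 and 2.98 RPKM in CS. All 3 estimates were above 0 and the groups of each gene overlapped, while the interval of the fold was 0.812 to 1.47 for Unc80 and 0.714 to 1.98 for Unc79.

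The sodium channel beta subunits Scn2b, Scn3b and Scn4b had overlapping groups and gave no call. Scn2b, whose product is joined to the alpha subunit by a disulfide bond, had 60.4, 35.4 and 57.7 RPKM in Con and 44.2, 60.6 and 46.8 RPKM in CS. It rested on 2101 reads, and its estimate was 0.01 ± 0.25, with a fold interval of 0.661 to 1.53. Scn4b, a subunit enriched in striatal neurons and tied to resurgent sodium current, had 8.02, 17.8 and 7.8 RPKM in Con and 9.37, 5.77 and 5.4 RPKM in CS. Con library 2 held more than the other libraries, and the groups overlapped (log2 fold change -0.64 ± 0.40 SE, limma adjusted p = 0.582). Scn3b had 4.06, 2.05 and 3.16 RPKM in Con and 2.4, 4.07 and 2.66 RPKM in CS and an estimate of -0.02 ± 0.39.

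Calcium channel alpha2delta subunits showed the largest difference among the channel genes. Cacna2d4 (chromosome 6, 119236526 to 119352407, plus strand, GRCm38) had 9.52, 4.89 and 7.74 RPKM in Con and 1.14, 1.52 and 2.28 RPKM in CS, from 61, 54 and 85 reads in Con and 19, 22 and 61 reads in CS. The highest CS library lay below the lowest Con library. Its mean was 7.38 ± 2.33 RPKM in Con and 1.65 ± 0.58 RPKM in CS (SD, n = 3), and the log2 fold change was -2.11 ± 0.40 SE by limma (adjusted p = 0.0769) and -2.04 ± 0.33 SE by voom (adjusted p = 0.00495). By voom the call held without each of the 6 libraries in turn (adjusted p from 0.000653 to 0.0272), with the log2 fold change between -2.39 and -1.83, and with library totals (-1.71, adjusted p = 0.0137). By limma on log2 RPKM it did not pass with any of these 6 libraries left out either (adjusted p from 0.0681 to 0.256).

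The other alpha2delta genes gave no call. Cacna2d2, which like Cacna2d1 encodes a subunit that binds gabapentin, had 8.93, 12.5 and 6.84 RPKM in Con and 9.17, 6.98 and 8.78 RPKM in CS (log2 fold change -0.15 ± 0.28 SE, limma adjusted p = 0.859). Cacna2d3 had 8.01, 7.91 and 4.91 RPKM in Con and 8.32, 9.01 and 9.68 RPKM in CS, with every CS library above the Con libraries (log2 fold change 0.40 ± 0.26 SE, limma adjusted p = 0.596). Cacna2d1 had 1.31, 1.66 and 1.39 RPKM in Con and 1.51, 0.947 and 1.57 RPKM in CS, on 161 reads. In Con the level of Cacna2d4 lay near those of Cacna2d2 and Cacna2d3, and in CS near that of Cacna2d1. Per library the ratio of Cacna2d4 to Cacna2d2, chosen after the values were seen, was 1.07, 0.39 and 1.13 in Con and 0.124, 0.217 and 0.26 in CS (exact two-sided permutation p = 0.1, the smallest that 3 libraries against 3 can give). Its share of alpha2delta RPKM was 34.3, 18.1 and 37.1% in Con and 5.67, 8.21 and 10.2% in CS.

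**Figure D4:**
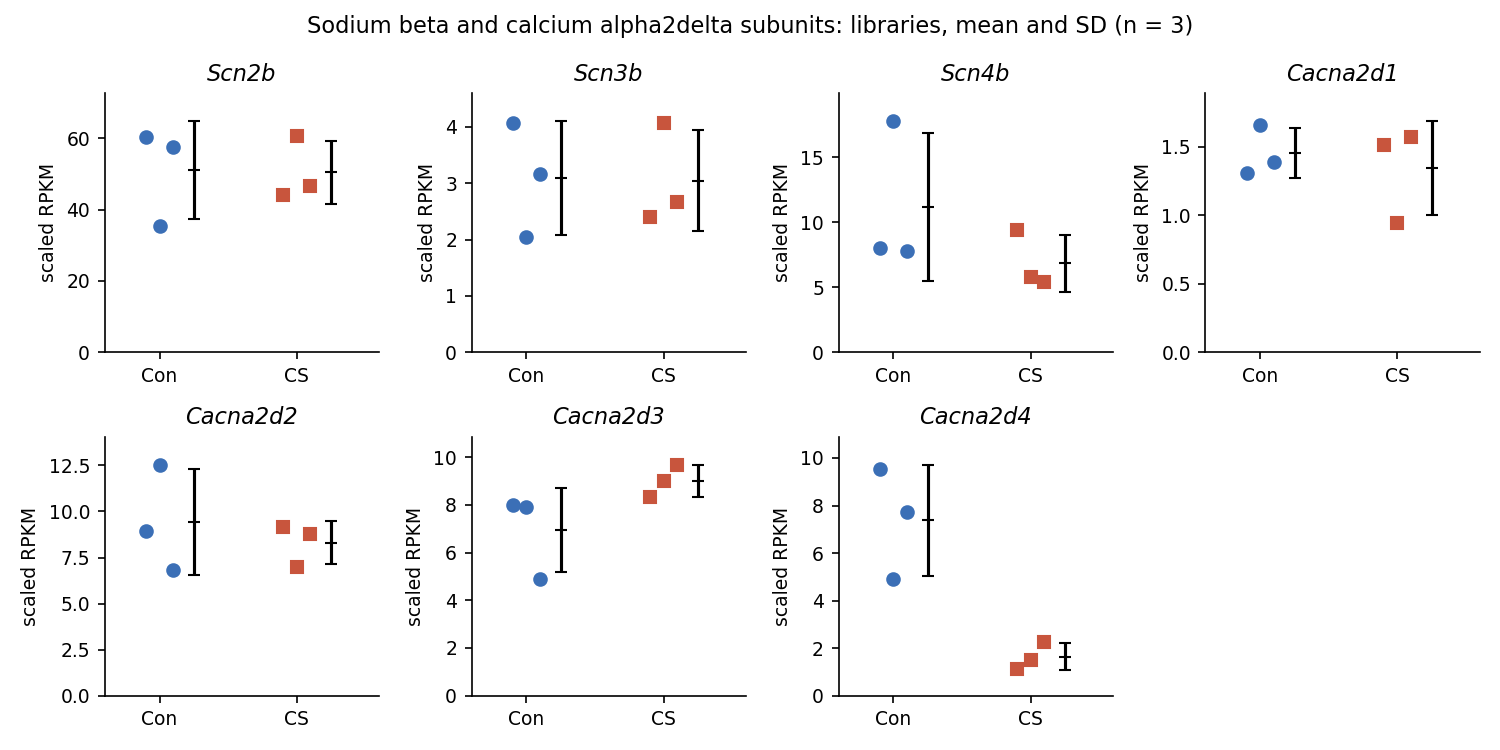
Level of 3 sodium channel beta and 4 calcium channel alpha2delta genes in each library (median-scaled RPKM, linear axes from 0), with the group mean and SD as a bar beside the points (n = 3). Cacna2d4 has CS below Con without overlap, Cacna2d3 has CS above Con, and the other 5 genes overlap.

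The reads of Cacna2d4 are not shared with an annotated exon of another row. Of the 33 genes 10 overlap an exon of another row. The row Lrtm2 lies within Cacna2d4 on the opposite strand (log2 fold change 0.57 ± 0.39 SE), and Adipor2, whose row starts 743 bases away, had -0.09 ± 0.40. Cacna1c lies 40108 bases from Cacna2d4, with the estimate given above. None of Lrtm2, Adipor2 and Cacna1c was called by limma or voom. Dcp1b, 14910 bases away, had -0.14 ± 0.61 by limma, was not called and had too few reads for voom. Fbxl14, 127261 bases away, was called by voom (adjusted p = 0.00323) and is described with Wnt5b under the other observations.

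Cytoplasmic calcium channel beta subunits had estimates from -0.52 to 0.11. Cacnb1 had 20.6, 12 and 15.8 RPKM in Con and 13.7, 18.7 and 17.9 RPKM in CS, and Cacnb3 had 14.7, 18.7 and 8.3 RPKM in Con and 13.7, 18.2 and 11.6 RPKM in CS. Cacnb4, the partner of the P/Q-type pore in many central neurons, had 4.95, 3.64 and 4.91 RPKM in Con and 4.38, 3.64 and 6.36 RPKM in CS. All 3 had overlapping groups and estimates of 0.08 ± 0.25, 0.11 ± 0.34 and 0.06 ± 0.31. Cacnb2 had 3.8, 7.08 and 4.37 RPKM in Con and 4.69, 2.42 and 3.48 RPKM in CS, where Con library 2 was the highest and CS library 2 the lowest (log2 fold change -0.52 ± 0.38 SE, limma adjusted p = 0.646).

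Auxiliary subunit RNA relative to that of pore-forming subunits overlapped between the groups. Summed over the 33 genes, auxiliary RPKM divided by pore-forming RPKM was 1.45, 1.44 and 1.31 in Con and 1.31, 1.41 and 1.36 in CS (1.4 ± 0.0772 and 1.36 ± 0.0502, SD, n = 3). With Cacna2d4 left out, after the values were seen, it was 1.37, 1.39 and 1.24 in Con and 1.3, 1.4 and 1.34 in CS, and the ranges again overlapped. These sums follow abundant genes such as Scn2b, and no test was made of them. The summed level in RPKM of the 9 sodium alpha genes was 36.7, 29.7 and 35.6 in Con and 35, 36 and 37.3 in CS and that of calcium alpha1 genes 73.5, 62.9 and 70.2 in Con and 61.6, 67.3 and 60.3 in CS.

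**Figure D5:**
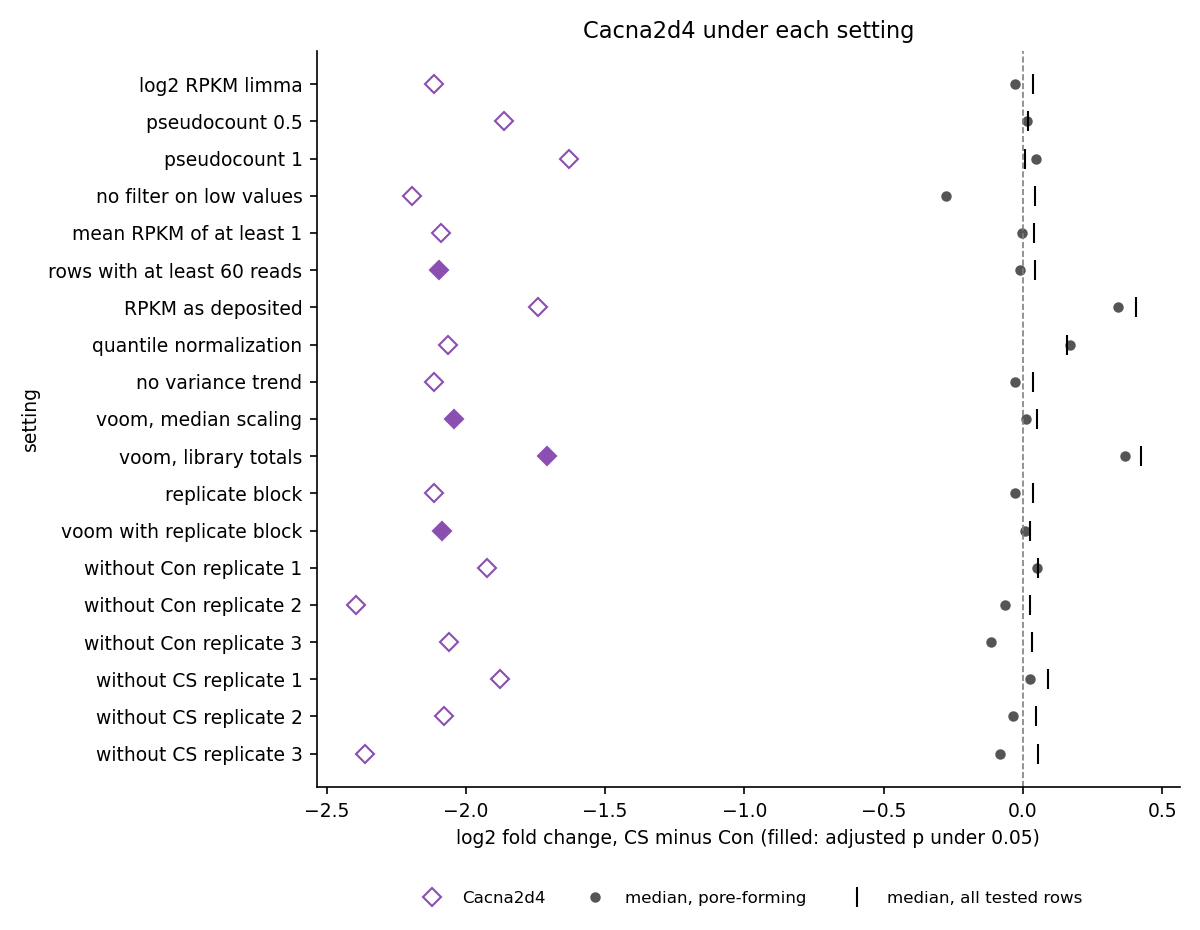
Log2 fold change (CS minus Con) of Cacna2d4 under each setting, filled where the adjusted p over all rows was under 0.05, with the median of pore-forming genes and of all tested rows. Cacna2d4 stays below 0 in all 19 settings and is past the threshold in 4, and with RPKM as deposited or library totals all points shift to the right together.

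Markers of some cell types also lay lower in CS, and their part in the difference of Cacna2d4 was not tested. The 12 striatal projection neuron markers summed to 480.2 to 682 RPKM in Con and 306 to 458 RPKM in CS, with 10 of 12 lower, 0 called by limma and 2 called lower by voom, beside the 6.16% of all rows. The 2 called were Adcy5 (voom adjusted p = 0.00467) and Bcl11b (0.0237), both known to be low in CS when the list was written. Adcy5 alone had 171, 187 and 152 RPKM in Con and 60.1, 97.3 and 49.2 RPKM in CS, so it weighs heavily in the sum. Voom also called 1 gene lower in each of the neuron, oligodendrocyte, microglia and ependymal lists. In the microglia list only 2 of 5 genes were lower, with a median log2 fold change of 0.51. Of the 2 ependymal markers listed, only Foxj1 was found. Con library 2, which had the highest Scn4b, also had the highest striatal, oligodendrocyte and microglia sums, and no link between these was tested. The 6 oligodendrocyte markers summed to 169.5 to 291 RPKM in Con and 73.6 to 159 RPKM in CS, with 5 of 6 lower, and the 6 neuron markers had 3 lower. For these 3 lists all CS sums lay below the Con sums after median scaling. As deposited the striatal and oligodendrocyte sums overlapped, and the neuron sums lay above Con in CS (319.7 to 333 RPKM in Con and 362 to 368 RPKM in CS). Foxj1, the ependymal marker, lay below Con in CS on both scales (4.59 to 5.07 RPKM in Con and 1.08 to 2.24 RPKM in CS after scaling). Summed levels of GABAergic, glutamatergic, astrocyte, microglia and endothelial markers overlapped between the groups after scaling, as did those of striated muscle, and as deposited the GABAergic and astrocyte sums lay higher in CS. Oligodendrocyte precursor markers lay higher in CS on both scales (4.75 to 6.28 RPKM in Con and 6.61 to 8.35 RPKM in CS after scaling). No marker was at 0 in all libraries. Adcy5, Bcl11b, Rxrg, Foxj1, Neurod1 and Cx3cr1 were already known to have low estimates in CS when these lists were written. Lower sums and calls in the lists that hold them are therefore not separate results.

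Genes whose proteins bind these channels gave no call by limma (0 of 33). At an unadjusted p under 0.05, 2 were higher and 2 lower, beside 774 higher and 1803 lower of all 20550 tested rows. By voom 0 higher and 2 lower of 29 were called (6.90%, beside the 6.43% of all rows). With library totals the direction of the calls turned, and voom called 3 higher and 0 lower, beside 2.6% of all rows called higher. Limma on rows with at least 60 reads called Stac alone (3.45%, beside 4.09% of all rows). Stac, an adaptor of L-type channels, had 7.27, 8.45 and 8.49 RPKM in Con and 4.31, 3.21 and 3.35 RPKM in CS (limma adjusted p = 0.0954, voom 0.0466). Cacng4, named after a calcium channel subunit but best known as an auxiliary subunit of AMPA receptors, had 124, 168 and 128 RPKM in Con and 80.9, 79.3 and 57 RPKM in CS (limma adjusted p = 0.105, voom 0.0145). Both had CS below Con in all libraries. Calm3, a calmodulin gene, had 294, 324 and 288 RPKM in Con and 459.5, 389 and 442 RPKM in CS (limma adjusted p = 0.23, voom 0.0619), and Rims2, an active zone protein that tethers calcium channels, had an estimate of 0.53 ± 0.20. These 2 had CS above Con in all libraries, and with Calm2 they were the 3 called higher with library totals. The 15 sodium channel partners include the axonal anchors Ank3 and Sptbn4 and the intracellular growth factor homologues Fgf11 to Fgf14. Of these partners 14 had a higher estimate and 1, Fgf14, a lower one (-0.26 ± 0.34 SE), while 48% of all rows were lower. Their median was 0.24, beside 0.03 for all rows. As deposited it was 0.61, beside 0.41 for all rows, of which 33.6% were then lower. Of the 18 calcium channel partners 9 had a higher and 9 a lower estimate.

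Potassium and HCN channel genes, the other large group of voltage-gated channels, had a median of -0.15 over 72 tested genes, with 40 lower and 32 higher. By limma 0 were called. At an unadjusted p under 0.05, 2 were higher and 12 lower, beside 774 higher and 1803 lower of all 20550 tested rows. By voom 5 of 52 fell and 0 rose (9.62%, beside the 6.43% of all rows). Limma on rows with at least 60 reads called 4 of 52, all lower (7.69%, beside 4.09% of all rows). Voom with library totals called 2 higher and 2 lower (7.69%, beside 5.02% of all rows). As deposited 9 were higher and 7 lower at an unadjusted p under 0.05, beside 12% of all rows higher and 4.69% lower. The split between higher and lower thus depends on the scaling. No test compares this group with the sodium and calcium channel genes.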

How the data were processed

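RNA precipitated with phosphorylated ribosomes was depleted of rRNA and sequenced as stranded libraries, per the labels' protocols. The authors deposited 1 table of RPKM values for 29547 rows in 6 libraries. Per the submitters' processing notes, Trimmomatic 0.36 and featureCounts (Subread 1.5.1) were used, with GRCm38 and mm10 as the genome builds. Neither the aligner nor the counting's strand setting is given in the sources used here. Reads were recovered from RPKM and row length, and all values above 0 came out as whole reads within 0.01 read (100%).

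Rows with a mean of at least 0.5 RPKM (20550) were tested as log2(RPKM + 0.1), after each library's median deviation was subtracted, with lmFit and eBayes (variance trend) of limma 3.58.1 under R 4.3.3. Benjamini-Hochberg adjustment ran over all tested rows with a threshold of 0.05. Fold changes on this scale understate the change of low genes. Alternatives changed the pseudocount, the filter, the scaling or the variance model, or used limma voom on the 10463 rows with at least 60 recovered reads, the replicate number as a block, and each library left out in turn. Voom with a library left out was added after seeing the data. Both models were tested on simulated reads.

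Whether the libraries within a group are from different animals is not stated, so the p-values speak of the spread among these samples alone, and that spread may be technical. No batch or date is given. Intervals and floors on reads cover counting error only. Members, lists and tests were chosen with earlier results of these data known. Values in every library are given for members past the threshold, for the 12 with the smallest p, for the main neuronal pore subunits and for auxiliary subunits with at least 60 reads; of the partners, the 4 with the smallest p are named. Ank3, Sptbn4, Calm2, the Fgf genes, the cell type marker genes, the potassium channel genes and the neighbouring rows of Cacna2d4 were named outside this rule. Of the 35 genes that match the symbol rule 2 are not reported here, and counts, sums and medians of channel genes are over the other 33.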

Additional observations from a re-analysis of the deposited data

How the results depend on the processing

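Cacna2d4 lay below 0 in all 19 settings, and 16 of 28 channel genes kept their direction under every alternative that used all libraries. Limma on log2 RPKM called 199 rows. It called 112 with a pseudocount of 1, 107 with no filter, 428 on rows with at least 60 reads, 65 as deposited and 110 with quantile normalization, and from 8 to 297 with 1 library left out. Voom called 673 rows with median scaling, 525 with library totals and 731 with the replicate block, and from 253 (without CS library 3) to 771 (without Con library 2) with 1 library left out. Channel genes called were 1 on rows with at least 60 reads, 1 by voom with median scaling, with or without the replicate block, and 1 by voom with library totals. With the replicate block limma called 0 rows (1691 at an unadjusted p under 0.05, and 2577 without the block), and no pairing is established: deviations of equally numbered libraries correlated at -0.40, -0.18 and -0.057 over 10456 rows. Genes with a lower estimate numbered 6 as deposited and 5 by voom with library totals, against 15. Medians of pore-forming and auxiliary genes were 0.016 and 0.062 with a pseudocount of 0.5, 0.049 and 0.10 with a pseudocount of 1, -0.27 and -0.075 with no filter, 0.34 and 0.38 as deposited, 0.17 and 0.21 with quantile normalization and 0.37 and 0.40 by voom with library totals, and lay from -0.11 to 0.0504 and from -0.099 to 0.13 with 1 library left out.

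With a pseudocount of 0.5 Cacna1a had 0.016 and Cacna1e 0.027, and with 1 they had 0.049 and 0.063 and Scn3b 0.0065. With no filter Scn2b had -0.075, Cacnb1 -0.0033 and Cacnb4 -0.024, and with a mean of at least 1 RPKM Cacna1e had 0.0025 and Scn3b 0.0048. As deposited Scn3a had 0.13, Scn9a 0.10, Cacna1a 0.34, Cacna1c 0.13, Cacna1e 0.35, Cacna1i 0.14, Scn3b 0.35, Cacna2d1 0.21 and Cacna2d2 0.22, and by voom with library totals the same genes in that order had 0.17, 0.11, 0.37, 0.12, 0.37, 0.14, 0.40, 0.24 and 0.24. With quantile normalization Cacna1a had 0.17, Cacna1e 0.20, Scn3b 0.11 and Cacna2d2 0.038. By voom Cacna1a had 0.011, Cacna1e 0.013 and Scn3b 0.027, and with the replicate block 0.00505, 0.0095 and 0.022. With 1 library left out Cacna1a ranged from -0.11 to 0.0504, Cacna1e from -0.13 to 0.091, Scn3b from -0.29 to 0.18, Unc80 from -0.018 to 0.20, Scn2b from -0.25 to 0.13, Cacna2d2 from -0.37 to 0.059, Cacnb1 from -0.13 to 0.25, Cacnb4 from -0.16 to 0.24, Cacnb3 from -0.23 to 0.35 and Cacna2d1 from -0.28 to 0.065. The shifts as deposited and with library totals come with the scaling, which moves the median of all rows to 0.41 and 0.42, and the cause of the others was not tested.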

Other observations

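Among potassium channel genes, chosen after their values were seen, Kcnma1 and Kcna7 had CS below Con in every library and fell by voom with median scaling, but not by limma on all tested rows. On rows with at least 60 reads limma called Kcna7 (adjusted p = 0.0365) and not Kcnma1 (0.0972), and with library totals voom also called Kcna7 (0.0226) and not Kcnma1 (0.121). Kcnma1, the pore of the large-conductance potassium channel opened by calcium and voltage, had 11.5, 11.8 and 14.2 RPKM in Con and 7.38, 7.62 and 4.84 RPKM in CS (limma adjusted p = 0.173, voom 0.0343). Kcna7, a shaker-related channel known mainly from muscle and heart, had 48.1, 25.2 and 37.6 RPKM in Con and 6, 15 and 9.41 RPKM in CS (limma adjusted p = 0.0933, voom 0.00701).

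Of the 6 rows nearest to Cacna2d4, Fbxl14, which encodes an F-box protein of ubiquitin ligases and lies 127261 bases away, had a log2 fold change of -2.29 ± 0.40 SE (limma adjusted p = 0.0665, voom 0.00323), close in size to that of Cacna2d4. Wnt5b, which is nearer at 80124 bases, had -0.23 ± 0.68. Fbxl14 was singled out after its value was seen.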
